A study of Homo sapiens with 12 samples.

Results

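The m6A peaks described here are those that the authors annotated to the 5' untranslated region (5'UTR) of a gene in A375 cells, a human melanoma cell line, with shALKBH5 or with the control hairpin, shCtrl. They were chosen by the region given for each peak and by no measured value. They numbered 7639 of the 46039 peaks listed for shALKBH5 cells (16.6%, 95% Wilson interval 16.3 to 16.9%) and 7521 of the 44304 peaks listed for shCtrl cells (17.0%, 16.6 to 17.3%). A further table, in which the authors compared the groups, held 1044 such rows of 6513 (16.0%). The shALKBH5 cells carried a short hairpin RNA against ALKBH5 delivered by lentivirus, and the shCtrl cells carried the control hairpin by the same route. Which ALKBH5 hairpin was sequenced is not given in the sources used here. Each group had 3 input libraries and 3 libraries precipitated with an antibody against m6A (IP), all from poly(A) RNA, and nothing in the labels says whether replicates came from separate cultures. The paper states 3 independent repeats for its experiments in general and does not link them to these libraries. The p-values below therefore measure the spread between these libraries, which may be technical.

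The m6A mark is a methyl group on adenosine inside messenger RNA. A complex around METTL3 and METTL14 places it, FTO and ALKBH5 remove it, and proteins such as those of the YTH family bind it. Most of it lies near stop codons and in 3'UTRs, whereas m6A in the 5'UTR has been tied to translation that does not need the cap-binding complex, above all of heat shock genes under stress. Antibodies against m6A also bind m6Am, a related methylated adenosine that can stand next to the cap when a transcript begins with A. The peak lists do not tell these marks apart.

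Each group has a single peak list without library values, so the peaks have no replicate check, and the Wilson intervals cover counting error only. The expression values are FPKM (fragments scaled by transcript length and library size) in the 6 input libraries. ALKBH5, the targeted gene (ENSG00000091542), was at 19.3, 17.8 and 17.6 FPKM in the shCtrl libraries and at 3.39, 3.92 and 3.12 FPKM in the shALKBH5 libraries. The groups did not overlap, as in 67.0% of all genes tested, and expression fell by 2.36 on the log2 scale (SE 0.0887, adjusted p of 1.28e-06 by limma). ALKBH5 itself carried 5'UTR peaks. The shCtrl list held 1, which began at the 5' end of the gene with a fold of 7.66, and the shALKBH5 list held 2, the nearer of them 860 bp from that end, with folds of at most 2.09. Of the melanocyte lineage markers, SOX10 was at 179 to 192 FPKM in shCtrl and 180 to 181 FPKM in shALKBH5 libraries, and 4 of the 7 markers found (PMEL, TYR, TYRP1 and DCT) stayed under 1 FPKM in every library. S100B was at 31.5 to 34.2 FPKM in shCtrl and 79.0 to 85.1 FPKM in shALKBH5 libraries, and MITF at 0.645 to 1.01 and 0.913 to 1.57 FPKM. Of the 4 keratinocyte markers, KRT5 and KRT1 were not listed. KRT14 was at 0.830 to 1.07 FPKM in shCtrl and 0.242 to 0.526 FPKM in shALKBH5 libraries, and KRT10 at 7.99 to 8.46 and 10.3 to 11.3 FPKM. The endothelial markers summed to at most 0.388 FPKM. The fibroblast markers summed to 7.58 to 8.57 FPKM in shCtrl and 3.46 to 3.76 FPKM in shALKBH5 libraries, of which PDGFRB made up 6.89 to 7.85 and 2.64 to 2.88 FPKM. Of the 3 leukocyte markers, PTPRC and CD3E were not listed. CD68 was at 14.8 to 17.2 FPKM in shCtrl and 38.1 to 41.9 FPKM in shALKBH5 libraries. The part of these markers in the results below was not tested.

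Since many 5'UTR peaks began at the annotated 5' end of the gene, the sequence at the start of some genes is shown first. The sequences are RefSeq's (GRCh38.p14), read on the strand of the gene, 15 bases before the start and 15 from it on, with the base at the start in capitals. SENP3, PBX2 and ANKS1A are those of the 10 genes with the highest folds whose start in RefSeq lay within 10 bp of the gene end in the files, and their starts were G, C and A.

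SENP3 (chr17:7561904-7561933, +): cgctcttcgccgggtGtgacgtactaatcg
PBX2 (chr6:32190188-32190217, -): tccccccccttctccCtcctccctcctccc
ANKS1A (chr6:34889240-34889269, +): acgccggatcccggaAgtgacgcgctcgtg

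Genes of ribosomal proteins begin with C in a run of pyrimidines, a well-known feature of this family. The starts of 3 such genes without a 5'UTR peak in either list, chosen after the values were seen, are shown for contrast. Of the 36 ribosomal protein genes with a RefSeq start no more than 10 bp from the gene end and at least 5 FPKM, 27 began with C, and 3 of these (RPL24, RPS10 and RPS14) had a peak at the gene end in both lists.

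RPS6 (chr9:19380222-19380251, -): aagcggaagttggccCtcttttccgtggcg
RPS27 (chr1:153990747-153990776, +): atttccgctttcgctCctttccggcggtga
RPS3 (chr11:75399503-75399532, +): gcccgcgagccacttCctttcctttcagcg

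The base at the start was compared between genes with and without a peak. Among 1958 genes averaging 5 FPKM or more, with a RefSeq start no more than 10 bp from the gene end, 49.1% of the 428 genes with a peak beginning at the 5' end in both lists began with A (95% Wilson interval 44.4 to 53.8%). Of the 1089 genes with no 5'UTR peak in either list, 37.6% did (34.8 to 40.6%). The intervals did not overlap. C was the starting base of 10.5% of the former and 17.5% of the latter, and G of 40.0% and 44.0%. Over all 35116 RefSeq starts, A made up 44.4% and C 14.7%. The pair CA, with A at the start, was present in 38.1% of the genes with such a peak, in 28.7% of those without one and in 29.6% of all RefSeq starts. Read the other way, 25.0% of the 840 genes that began with A had a peak at the 5' end in both lists (22.2 to 28.0%), against 20.9% of the 819 that began with G (18.2 to 23.8%) and 15.9% of the 283 that began with C (12.1 to 20.6%). A 5'UTR peak at any position in either list was held by 51.2% of the genes that began with A, 41.5% with G and 32.5% with C. The order of the bases was the same, so the contrast was not particular to peaks at the 5' end. Median expression was 12.6 FPKM for genes that began with A, 13.7 for G and 15.6 for C. Without ribosomal protein genes, the shares for A were 49.5% with a peak and 38.2% with none.

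The letters GGAC, the core of the m6A consensus, were searched in the 50 bases from the start on, on the strand of the gene. They occurred in 20.6% of the genes with a peak at the 5' end in both lists, in 18.5% of those with no 5'UTR peak and in 18.9% of all RefSeq starts. The longer word GGACT, which contains GGAC, occurred in 3.97%, 4.04% and 4.90%. These shares lay close together, and a word is a description of the window, not a methylated site.

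The 5'UTR peaks were next placed along their genes. In the shALKBH5 list 46.1% of them began at the exact 5' end of the gene (95% Wilson interval 45.0 to 47.3%), and in the shCtrl list 46.2% (45.1 to 47.3%). For exonic peaks, those in other exons of coding genes, the shares were 1.17% and 1.29%, and for 3'UTR peaks 2.11% and 2.03%. The annotation sets this contrast in part, since a 5'UTR lies by definition near the 5' end. The median distance from the gene end was 30 bp in both lists, with an upper quartile of 1479 bp for shALKBH5 and 1368 bp for shCtrl. A distance over 10000 bp was found for 14.2% and 13.9% of the peaks. Upstream of the gene end began 162 and 168 peaks.

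**Figure D1:**
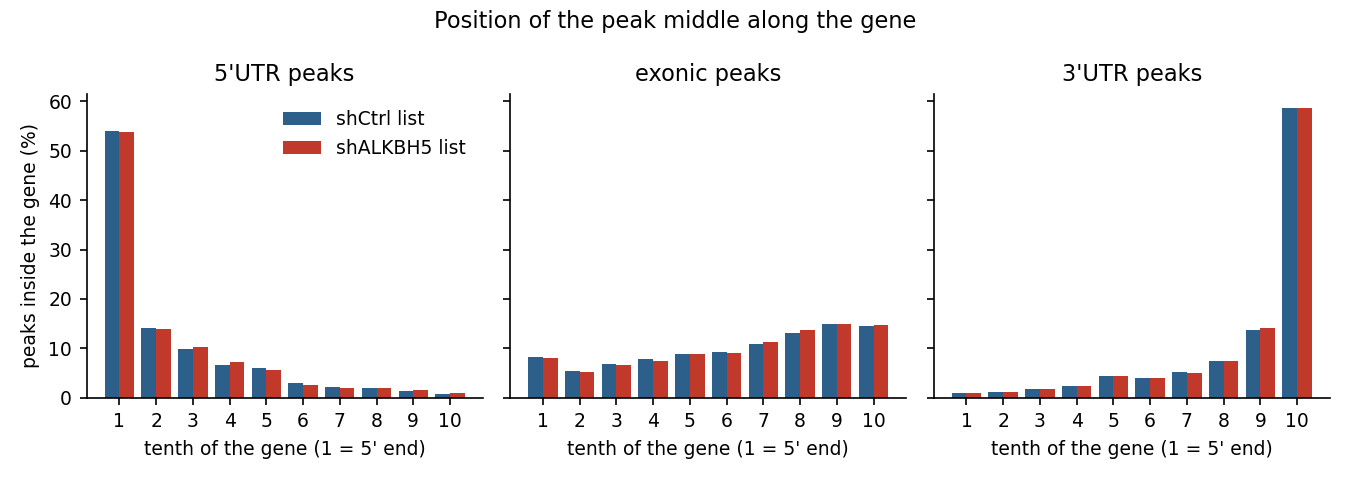
Share of peaks (%) whose middle fell in each of 10 equal parts of the gene, counted from the 5' end, for 5'UTR, exonic and 3'UTR peaks; blue bars are the shCtrl list and red bars the shALKBH5 list. The part at the 5' end held 53.8% of the 5'UTR peaks inside genes in the shALKBH5 list and 54.0% in the shCtrl list, and both lists fell off alike.

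Peak spans count introns that the peak crosses. The median span of a 5'UTR peak was 870 bp in the shALKBH5 and 873 bp in the shCtrl list, and 20.6% and 21.0% spanned more than 10000 bp. For 3'UTR peaks these shares were 7.27% and 7.21%.

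Peaks fell in 5928 genes of the shALKBH5 list and 5923 of the shCtrl list. Of these, 4668 genes had a 5'UTR peak in both lists, 1260 only in the shALKBH5 and 1255 only in the shCtrl list. A single 5'UTR peak was held by 77.9% and 79.0% of the genes, and 3 or more by 4.94% and 4.37%. Most of these genes had peaks elsewhere as well. A 3'UTR peak was listed for 79.8% of them in shALKBH5 and 79.3% in shCtrl cells, an exonic peak for 29.3% and 28.4%, and no other peak for 13.2% and 14.0%. The gene with the most 5'UTR peaks was ZC3H11A, a zinc finger protein of mRNA export, with 8 and 7 peaks, followed by the transporter ABCB9 and the small GTPase RHOF with 7 in each list.

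The share of genes with a 5'UTR peak was smallest in the class of lowest expression. Of the 12985 genes averaging 0.5 FPKM or more, 43.7% had a 5'UTR peak in either list (95% Wilson interval 42.8 to 44.5%). The share was 8.62% of genes under 0.5 FPKM, 40.8% from 0.5 to 5 FPKM, 47.4% from 5 to 20 FPKM and 47.0% at 20 FPKM or more. The enrichment ran the other way. The median fold of IP over input of the 5'UTR peaks was 7.35 in the shALKBH5 list in genes under 0.5 FPKM and 3.30 at 20 FPKM or more, and 7.66 and 3.19 in the shCtrl list. Peaks of other regions fell alike, in the shCtrl list from 7.66 to 3.09 for 3'UTR and from 6.38 to 2.46 for exonic peaks. These medians cover called peaks only, and the part of the calling in this fall was not tested.

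**Figure D2:**
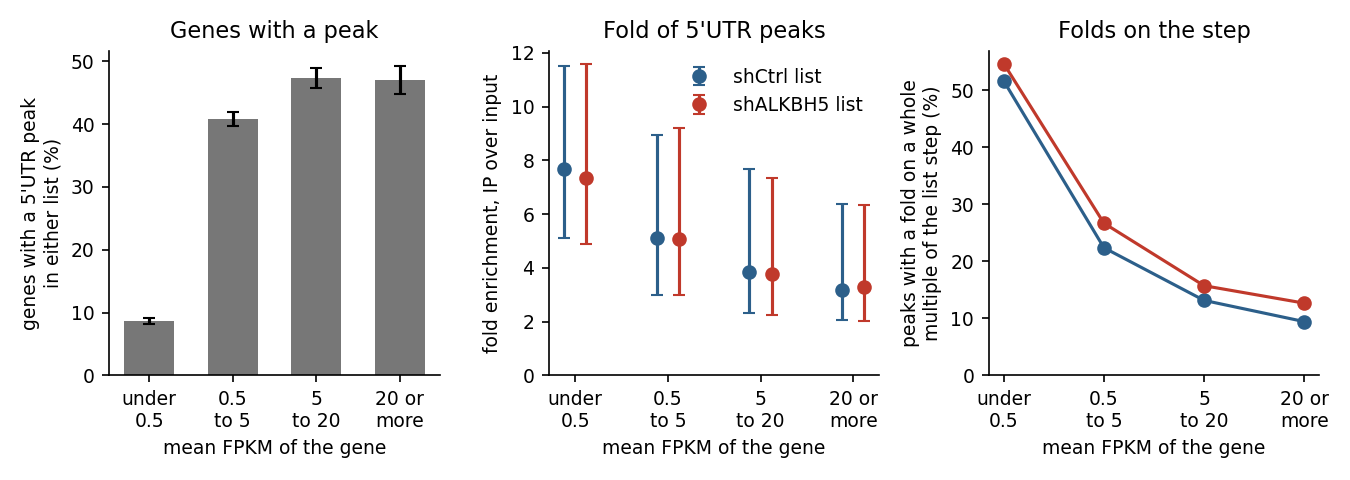
Left, share of genes (%) with a 5'UTR peak in either list by mean FPKM of the gene, with 95% Wilson intervals. Middle, median fold enrichment of 5'UTR peaks with quartiles. Right, share (%) of peaks under a fold of 10 whose fold is a whole multiple of the step of its list. The share of genes with a peak was 8.62% under 0.5 FPKM and 47.0% at 20 FPKM or more, whereas the median fold and the share on the step were highest under 0.5 FPKM.

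Folds were not spread evenly. Under a fold of 10, 24.8% of all peaks of the shALKBH5 list lay within 0.0051 of a whole multiple of 1.225, and 21.6% of the shCtrl list of a whole multiple of 1.277, where other steps near these took in 0.556% and 0.554%. The commonest folds were 7.35 and 7.66. Of the 5'UTR peaks, 25.9% and 22.4% lay on the step of their list, with 54.6% and 51.6% in genes under 0.5 FPKM and 12.7% and 9.42% at 20 FPKM or more. For 3'UTR peaks at 20 FPKM or more the shares were 3.92% and 4.57%. Whether folds on the step rest on few input reads was not tested, since the lists hold no reads.

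Over all classes the median fold of a 5'UTR peak was 4.90 in the shALKBH5 list (quartiles 2.69 and 8.85) and 5.11 in the shCtrl list (2.77 and 8.94). For 3'UTR peaks the medians were 4.95 and 5.11, and for exonic peaks 4.08 and 4.06. A fold of 2 or more together with an FDR of 0.01 or less was reached by 66.9% and 68.7% of the 5'UTR peaks. Folds of 100 or more were rare, at 45 and 48 peaks (0.589% and 0.638%), while 3'UTR peaks gave 0.191% and 0.166% and exonic peaks 0.0652% and 0.0840%.

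The 10 genes with the highest folds in both lists, at a mean of at least 5 FPKM, were led by SENP3, a protease that removes SUMO from proteins. Its peak began at the 5' end of the gene on chromosome 17 (coordinates of the files, whose build is not named there), spanned 1791 bp (7561919 to 7563709) in the shALKBH5 list and 1851 bp in the shCtrl list, and had folds of 1850 and 1750. The readthrough gene SENP3-EIF4A1 lies under the same peak, so the reads of both cannot be told apart. CAPNS1, the small regulatory subunit of calpain, had a fold of 4800 over 1547 bp from the gene end on (chromosome 19, 36139953 to 36141499) in the shCtrl list, where the shALKBH5 list had separate peaks with folds of 84.6 and 548 over 451 and 761 bp. MCM7, a subunit of the replicative helicase, had nearly equal folds of 201 and 199, about 1076 bp from the gene end. KIRREL1, an adhesion protein of the nephrin family, had peaks of 330 and 300 bp at the gene end with folds of 214 and 333. The homeodomain factor PBX2 had folds of 127 and 545 and the G protein subunit GNB1 127 and 390. The others were the chromatin protein MORF4L1 (311 and 535), the transcriptional corepressor ATN1 (405 and 201), the tyrosine phosphatase PTPN12 (211 and 369) and ANKS1A, an ankyrin repeat adaptor (181 and 229). The fold was higher in the shALKBH5 list for 3 of the 10 genes. Peaks of GNB1 and ANKS1A ran over 65761 and 78029 bp in both lists and so crossed introns. The spans differed by more than 2-fold for 3 of the 10 genes, CAPNS1, MORF4L1 (63264 and 25775 bp) and PTPN12 (26832 and 8485 bp). Some of these genes were also expressed at different levels in the groups. MCM7 was at 90.7, 81.7 and 83.5 FPKM in the shCtrl libraries and 27.3, 26.1 and 27.6 FPKM in the shALKBH5 libraries. MORF4L1 was at 10.8, 12.9 and 11.9 FPKM in shCtrl and at 28.6, 29.9 and 26.5 FPKM in shALKBH5 libraries. By limma, 3 of the 10 were higher, 4 lower and 3 (ATN1, PBX2 and PTPN12) not past an adjusted p of 0.05, where 61.0% of all genes tested were called, 34.7% higher and 26.2% lower.

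The peaks of both lists were then matched. A shALKBH5 5'UTR peak shared 1 bp or more on its strand with a shCtrl peak of any region in 79.7% of cases (95% Wilson interval 78.8 to 80.6%), and a shCtrl 5'UTR peak a shALKBH5 peak in 80.1% (79.2 to 81.0%). The shares were 81.8% and 82.6% for exonic and 81.1% and 83.8% for 3'UTR peaks. The longest overlapping peak was itself a 5'UTR peak in 90.3% and 90.6% of these cases. The overlap was larger for peaks of higher fold and lower FDR. Of these stricter peaks, with a fold of 2 or more and an FDR of 0.01 or less, 91.1% in the shALKBH5 and 90.4% in the shCtrl list overlapped a peak of the other list, compared with 56.7% and 57.4% of the remaining peaks. The share was larger in classes of higher expression, from 73.2% under 0.5 FPKM to 85.5% at 20 FPKM or more in the shALKBH5 list and from 71.8% to 87.2% in the shCtrl list. Peaks at the exact gene end were shared in 80.4% and 80.6%, and those elsewhere in 79.1% and 79.7%. With an overlap of at least 50% of both spans required, the shares were 53.9% and 54.9%.

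The fold enrichment of 5'UTR peaks was compared between the lists. A fold is a ratio within its list, and how the libraries were scaled is not given. The comparison therefore cannot show whether methylation rose or fell as a whole. By mass spectrometry (LC-MS) the paper reported a higher total m6A level in shALKBH5 than in control A375 cells. Each shALKBH5 peak was paired with the shCtrl peak of longest overlap, so a shCtrl peak can stand in more than 1 pair. In 5634 pairs of overlapping 5'UTR peaks, the median log2 ratio of the shALKBH5 fold over the shCtrl fold was -0.06 (quartiles -0.47 and 0.37). This equals the log2 ratio of the steps of the lists, also -0.06. After division of each fold by the step of its list, chosen after seeing the data, the median was 0.0013. Such a division takes out a factor common to a list, so it cannot show a shift of all folds. The fold was at least 2-fold higher in the shALKBH5 list in 596 pairs (10.6%) and at least 2-fold lower in 706 (12.5%). Over the pairs of all regions these shares were 8.70% and 11.8%. For 3'UTR pairs they were 7.09% and 9.09% and for exonic pairs 7.85% and 10.7%. In genes of at least 5 FPKM they were 7.36% and 8.94% for 5'UTR, 3.21% and 4.49% for 3'UTR and 3.06% and 3.32% for exonic pairs. No test was possible with 1 list per group.

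**Figure D3:**
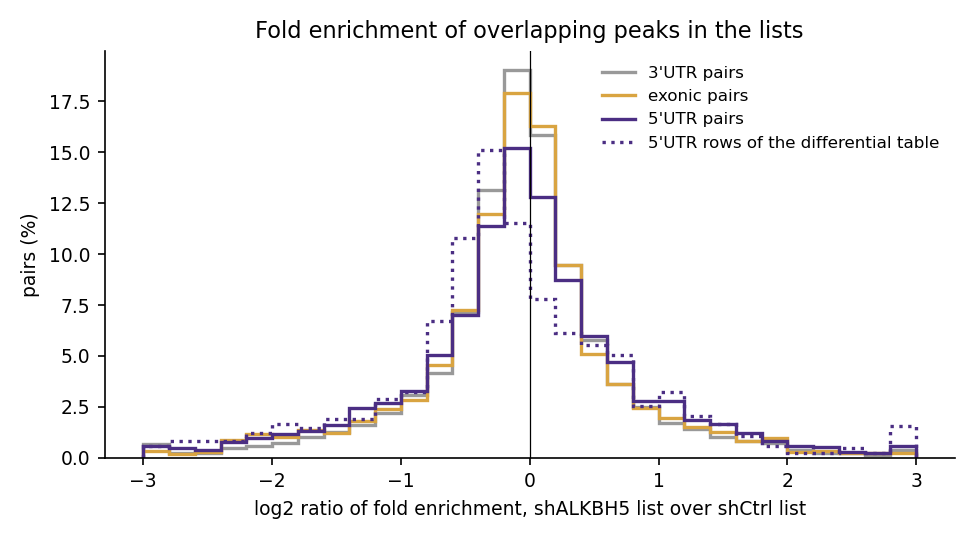
Distribution of the log2 ratio of fold enrichment, shALKBH5 list over shCtrl list, in bins of 0.2, with values beyond ±3 put in the outer bins; lines show the percent of pairs for 5'UTR, exonic and 3'UTR peaks and for the 5'UTR rows of the differential table. The lines for 5'UTR, exonic and 3'UTR pairs are centred near 0, with a median of -0.06 for 5'UTR pairs. The line for the rows of the table lies lower, with a median of -0.20.

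The extent of the peaks of a pair was compared as well. The spans differed by more than 2-fold in 29.1% of the 5'UTR pairs. This was so in 43.5% of the pairs whose folds were at least 2-fold apart and in 24.7% of the others. Where the spans were identical (820 pairs), 12.2% of the folds were at least 2-fold apart, and where spans differed by more than 2-fold, 34.6%. For 3'UTR pairs these shares were 5.12% and 31.7%. What set the differences in span was not tested.

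Differences in extent were also seen in the genes with the largest differences in fold, at a mean of at least 5 FPKM and with both peaks past a fold of 2 and an FDR of 0.01. These genes were chosen by that difference, so their values are a description. Folds were higher in the shALKBH5 list for CLP1, an RNA kinase of mRNA 3' end formation (82.1 and 5.29), the mitochondrial carriers SLC25A10 (38.0 and 2.63) and SLC25A42 (26.9 and 3.34), THOC5, a subunit of the mRNA export complex THO (34.3 and 4.47), and PABPN1, the nuclear poly(A)-binding protein (31.4 and 4.14). They were lower for CAPNS1, for DPYSL3, a protein of the cytoskeleton of neurons (2.11 and 23.0), for CPNE1, a calcium-dependent membrane-binding protein (2.50 and 23.0), for DESI2 (2.14 and 15.3) and for MMADHC, a protein of cobalamin metabolism (6.12 and 40.9). In 8 of the 10 pairs the spans differed by more than 2-fold. For SLC25A10 the shCtrl peak of 10872 bp also covered the neighbouring MRPL12 and began upstream of SLC25A10, at a distance of -7581 bp, while the shALKBH5 peak was 239 bp long. For PABPN1 the shCtrl peak covered BCL2L2, and the readthrough gene BCL2L2-PABPN1 lies under the peaks of both lists. For CPNE1 the gene RBM12 lies under the peaks of both lists. For CLP1 the shALKBH5 peak of 13246 bp began upstream of the gene, at a distance of -10968 bp, and covered MIR130A and AP000662, the latter also under the shCtrl peak of 1815 bp. The assignment of these 4 peaks to the named gene is therefore uncertain.

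In the table of differential peaks, 833 of the 1044 5'UTR rows overlapped 5'UTR peaks of both lists, 102 of the shALKBH5 list only, 95 of the shCtrl list only and 14 of neither. These rows were selected on the same libraries, so their values support nothing beyond a description. Their median log2 ratio of fold was -0.20 (quartiles -0.58 and 0.39), with 347 above and 486 below the ratio of the steps (41.7% above), compared with 50.4% above among all 5'UTR pairs. The rows began at the exact gene end in 35.2%, and 53.4% lay in genes of at least 5 FPKM, compared with 39.6% and 39.0% of the 5'UTR peaks in the lists.

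Expression of the genes with a 5'UTR peak was compared between the input libraries. Of the 7183 genes with a 5'UTR peak in either list, 5668 passed the filter of 0.5 FPKM, and 3570 of these (63.0%) had an adjusted p under 0.05 by limma, 1850 higher (32.6%) and 1720 lower (30.3%) in shALKBH5 cells. Over all 12985 genes tested, 61.0% were called, 34.7% higher and 26.2% lower. Of the 7317 tested genes without a 5'UTR peak, 36.3% were higher and 23.1% lower. The excess of higher over lower among genes with a peak depended on the scaling, because after each library was rescaled by its median ratio 1510 were higher and 1971 lower. The balance over all genes tested turned as well, to 3769 higher (29.0%) and 3913 lower (30.1%), while genes without a peak gave 2259 and 1942. Among genes with a peak, 213 (3.76%) were called with a log2 fold change of at least 1 and 419 (7.39%) with one of at most -1. Genes without a peak gave 489 (6.68%) and 398 (5.44%), and all genes tested 702 (5.41%) and 817 (6.29%). The median log2 fold change was 0.04 with a peak and 0.09 over all genes. Genes listed only for shALKBH5 cells were higher in 319 and lower in 231 of 866 cases, and those listed only for shCtrl cells in 255 and 275 of 841. After the rescaling these counts were 266 and 270 for the former and 199 and 308 for the latter. A peak is called against the input of the same cells, so these counts and the lists share libraries. In bulk RNA of a single cell line, fewer cells in a given state and less RNA per cell cannot be told apart. Among 2406 5'UTR pairs at 5 FPKM or more, Spearman's rank correlation between the log2 ratio of fold and the expression log2 fold change was -0.02 across peaks, which are not independent.

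The genes with a 5'UTR peak in both lists that rose most were PTGDR2, TCN1, C3AR1, MUC13 and DYNLRB1. PTGDR2, a receptor for prostaglandin D, had 0 FPKM listed in every shCtrl library and 2.34, 1.97 and 2.81 FPKM in the shALKBH5 libraries, yet the shCtrl list held a 5'UTR peak for it with a fold of 2.32, beside 8.22 in the shALKBH5 list. Against a group listed at 0 no fold is given, and its place at the head of these genes depended on the pseudocount, because at a pseudocount of 1 it stood behind TCN1, DYNLRB1 and C3AR1. TCN1, a vitamin B12 binding protein, was at 1.90, 2.58 and 1.95 FPKM in shCtrl and at 26.6, 28.3 and 28.0 FPKM in shALKBH5 libraries, a rise by 3.64 on the log2 scale (SE 0.112, adjusted p of 6.37e-07 by limma). C3AR1, the receptor for complement C3a, was at 1.30, 1.29 and 1.36 FPKM in shCtrl and at 11.7, 12.3 and 12.1 FPKM in shALKBH5 libraries, a log2 fold change of 3.10. Its peak was long in both lists, 6980 and 7010 bp, with folds of 3.10 and 4.75. DYNLRB1, a light chain of dynein, was at 8.25, 8.32 and 7.98 FPKM in shCtrl and at 52.4, 52.6 and 52.6 FPKM in shALKBH5 libraries, and its peaks of 241 bp at the gene end had folds of 2.19 and 2.57. The gene ITCH lies under the same peak of DYNLRB1 on the same strand. MUC13, a membrane mucin, averaged 0.184 ± 0.0528 FPKM (SD, n = 3) in shCtrl and 2.04 ± 0.193 FPKM (SD, n = 3) in shALKBH5 libraries. Its folds went the other way, 3.17 in the shALKBH5 list and 25.5 in the shCtrl list, for peaks of 10518 and 26177 bp that began 15659 and 0 bp from the gene end.

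Among those that fell most were ITGB5, RRBP1, ARHGDIB and MAN1A1. ITGB5, an integrin beta subunit, was at 74.6, 71.8 and 72.0 FPKM in shCtrl and at 5.84, 5.86 and 6.41 FPKM in shALKBH5 libraries, a log2 change of -3.57 (SE 0.0499, adjusted p of 9.71e-08 by limma). RRBP1, a ribosome-binding protein of the endoplasmic reticulum, was at 17.3, 17.2 and 16.0 FPKM in shCtrl and at 2.05, 2.01 and 1.99 FPKM in shALKBH5 libraries. For both genes the groups lay far apart, where the choice of genes itself required groups that do not overlap. ARHGDIB, an inhibitor of small GTPases, fell by 2.93 and MAN1A1, a mannosidase of the Golgi, by 2.74 on the log2 scale. The size for MAN1A1, a gene of low expression, depended on the pseudocount, with log2 changes of -0.96 at a pseudocount of 1 and -3.66 at 0.01, and that of MUC13 was 1.36 at a pseudocount of 1, compared with 2.93 at 0.1. Fold enrichment was higher in the shALKBH5 list for all 4 of these genes, by log2 ratios of 0.11 to 0.85, and for 1 of the 5 that rose, PTGDR2. The spans differed by more than 2-fold for ITGB5 (14202 and 594 bp), ARHGDIB (370 and 1164 bp), TCN1 (61 and 2426 bp) and MUC13. The input is the denominator of the fold, so these values are not independent of expression.

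**Figure D4:**
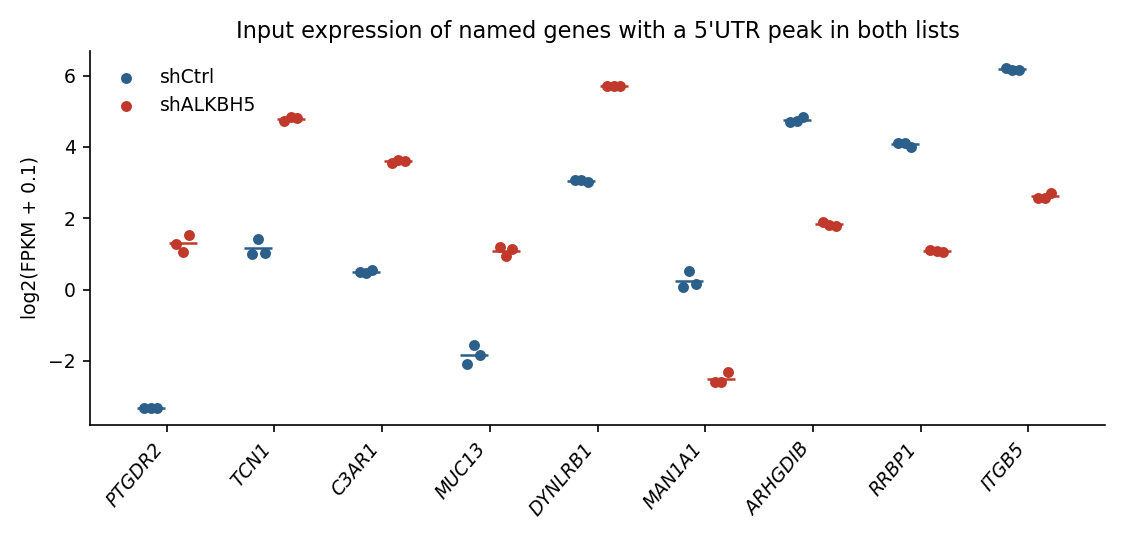
Expression of the 9 named genes in each input library on the log2(FPKM + 0.1) scale; points are libraries, 3 per group, and short lines are group means. The genes were chosen for groups that do not overlap, so the groups lie apart for each gene by that choice. PTGDR2 is listed at 0 FPKM in the shCtrl libraries.

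Genes were then grouped by role. Of the 23 tested genes of the m6A machinery, 17 (73.9%) had a 5'UTR peak in either list, compared with 43.7% of all genes tested. Of the 17, 5 were higher and 4 lower by limma (34.7% and 26.2% of all genes), and of all 23 genes tested 6 were higher and 5 lower. The lower genes include ALKBH5, the target of the hairpin, and after rescaling 4 of the 17 were higher and 4 lower (29.0% and 30.1% of all genes). Folds in the gene lists are the highest of a gene in each list and can belong to different peaks. HNRNPC, an RNA-binding protein whose sites m6A can expose, had a log2 fold change of -0.23 and folds of 1.82 and 2.43 in the shALKBH5 and shCtrl lists. HNRNPA2B1, a nuclear reader, fell by 0.73 on the log2 scale, with folds of 2.01 and 5.75. The cytoplasmic reader YTHDF1 rose by 0.47, with folds of 1.54 and 1.97, and IGF2BP2 had a log2 fold change of -0.05 (adjusted p = 0.653 from limma), with folds of 1.71 and 2.28. METTL3 and FTO were added after their values were seen. METTL3, the catalytic writer, had a peak at the gene end in both lists, with folds of 2.42 and 2.70, and a log2 fold change of 0.21 (adjusted p = 0.0123 from limma, and 0.0993 after rescaling). FTO had a peak in the shALKBH5 list only, with a fold of 3.67, and a log2 fold change of 0.59 (adjusted p = 0.000401 from limma).

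Heat shock genes and chaperones had a 5'UTR peak in 9 of 16 cases (56.2%, compared with 43.7% of all genes tested). Of the 9, 3 were higher and 3 lower in shALKBH5 cells (34.7% and 26.2% of all genes), and after rescaling by the median ratio 3 were higher and 5 lower (29.0% and 30.1% of all genes). Of all 16 genes tested, 5 were higher and 7 lower. HSPA8, the constitutive HSC70, had folds of 22.0 and 14.0 in the shALKBH5 and shCtrl lists and a log2 fold change of -0.12 (adjusted p = 0.141 from limma, and 0.0272 after rescaling). HSPB1 had a 5'UTR peak in the shCtrl list only (2.59), and its log2 fold change was -0.07 (adjusted p = 0.0979 from limma, and 0.0286 after rescaling). BAG3, a cochaperone of HSP70, had a fold of 2.10 in both lists and fell by 0.45 on the log2 scale, while the mitochondrial chaperone HSPD1 rose by 0.40, with folds of 1.37 and 1.45.

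The integrated stress response had a 5'UTR peak in 5 of 13 genes (38.5%, compared with 43.7% of all genes tested). Of the 5, 1 was higher and 3 lower, whereas of all 13 genes 7 were higher and 5 lower (34.7% and 26.2% of all genes). ATF4, whose upstream reading frames in the 5'UTR control its translation, had 3 peaks in the shALKBH5 list, up to a fold of 17.1, and 2 in the shCtrl list, with a fold of 5.75. It was at 113, 111 and 108 FPKM in shCtrl and at 90.4, 92.5 and 88.7 FPKM in shALKBH5 libraries. ATF5, a related factor with like reading frames, rose by 1.31 on the log2 scale, and ASNS, the asparagine synthetase, fell by 0.77. DDIT3 had a log2 fold change of -0.15 (adjusted p = 0.0765 from limma, and 0.0224 after rescaling).

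Immediate early genes had a 5'UTR peak in 12 of 18 cases (66.7%, compared with 43.7% of all genes tested). Of the 12, 5 were higher and 3 lower (34.7% and 26.2% of all genes), and of all 18 genes 7 were higher and 6 lower. FOSL1, an AP-1 subunit, rose by 0.46 on the log2 scale, with folds of 1.95 and 2.06 at 120 bp from the gene end in both lists. DUSP1, a phosphatase of MAP kinases, was at 7.87, 8.56 and 7.68 FPKM in shCtrl and at 21.8, 23.3 and 22.0 FPKM in shALKBH5 libraries, with a peak at the gene end in both lists (folds 3.10 and 2.60). Its relative DUSP6 fell by 0.31, and IER2 had a log2 fold change of 0.12 (adjusted p = 0.122 from limma).

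Cell cycle genes had a 5'UTR peak in 10 of the 20 genes tested (50.0%, compared with 43.7% of all genes). Of these, 8 were lower and 0 higher, with a median log2 fold change of -1.68, and of all 20 genes tested 17 were lower and 1 higher, where 26.2% of all genes were lower. PLK1, a mitotic kinase, was at 38.9, 33.4 and 34.9 FPKM in shCtrl and at 10.3, 10.3 and 9.72 FPKM in shALKBH5 libraries. Its 5'UTR peak was in the shCtrl list only, with a fold of 16.6. AURKA, another mitotic kinase, fell by 1.69 on the log2 scale and had its peak in the shALKBH5 list only, with a fold of 7.35. CCND1, the D-type cyclin, fell by 0.13, with peaks at the gene end in both lists (1.85 and 1.51), and CDK4 had a log2 fold change of 0.01 (adjusted p = 0.808 from limma). Of the 11 cell cycle genes with a 5'UTR peak, 4 had it in both lists, compared with 65.0% of all genes with a 5'UTR peak.

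Of the 20 autophagy genes tested, 9 had a 5'UTR peak (45.0%, compared with 43.7% of all genes), of which 7 were higher and 0 lower in shALKBH5 cells, and 12 of all 20 were higher, where 34.7% of all genes were higher. ATG9A, the lipid scramblase of the autophagosome, was at 10.6, 9.74 and 9.64 FPKM in shCtrl and at 18.2, 17.8 and 18.2 FPKM in shALKBH5 libraries, and had a 5'UTR peak in the shALKBH5 list only (6.74). MAP1LC3B, which marks autophagosomes, rose by 0.38 on the log2 scale, with folds of 6.12 and 7.66 at the gene end. ATG13, of the initiating kinase complex, rose by 0.31 (1.69 and 1.45), and the cargo receptor NBR1 by 0.32 (3.56 and 3.52).

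Of 30 genes of cytosolic ribosomal proteins, which together made up 13484 to 14796 FPKM, 9 had a 5'UTR peak (30.0%), compared with 47.0% of all genes at 20 FPKM or more. Of the 9, 5 were higher and 0 lower (34.7% and 26.2% of all genes), and after rescaling by the median ratio 3 were higher and 1 lower (29.0% and 30.1% of all genes). Of all 30, 19 were higher and 5 lower. RPL8 had folds of 4.05 and 3.43 and a log2 fold change of 0.10 (adjusted p = 0.0765 from limma), RPL19 folds of 3.03 and 3.73 and a rise of 0.27, and RPL10 folds of 4.90 and 3.37, at 0 and 8155 bp from the gene end, with a log2 fold change of 0.01 (adjusted p = 0.839 from limma). RPL4 rose by 0.24, with folds of 1.88 and 3.28. These genes have many near-identical pseudogenes, so their values are uncertain.

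Genes of cholesterol synthesis and efflux had a 5'UTR peak in 11 of the 13 tested (84.6%, compared with 43.7% of all genes tested). The efflux transporters ABCA1 and ABCG1 averaged 0.171 and 0.260 FPKM and were not tested. ABCA1, which the paper names as a target of ALKBH5, had no 5'UTR peak in either list. ABCG1 had a peak in the shCtrl list only, with a fold of 7.66. Of the 11, 6 were higher and 2 lower (34.7% and 26.2% of all genes), and of all 13 genes tested 6 were higher and 3 lower. After rescaling by the median ratio 5 of the 11 were higher and 2 lower (29.0% and 30.1% of all genes). FDFT1 and FDPS, enzymes of the synthesis, had a peak at the gene end in both lists, with folds of 2.83 and 2.69 and of 3.74 and 3.83. FDPS fell by 0.14 on the log2 scale, and FDFT1 had a log2 fold change of 0.09 (adjusted p = 0.0857 from limma). SREBF2, the main factor that switches on these enzymes, was at 21.4, 20.2 and 22.1 FPKM in shCtrl and at 26.8, 27.4 and 27.0 FPKM in shALKBH5 libraries, with folds of 3.44 and 2.03. Its relative SREBF1 had a log2 fold change of 0.13 (adjusted p = 0.0224 from limma, and 0.410 after rescaling), with folds of 2.74 and 3.40.

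**Figure D5:**
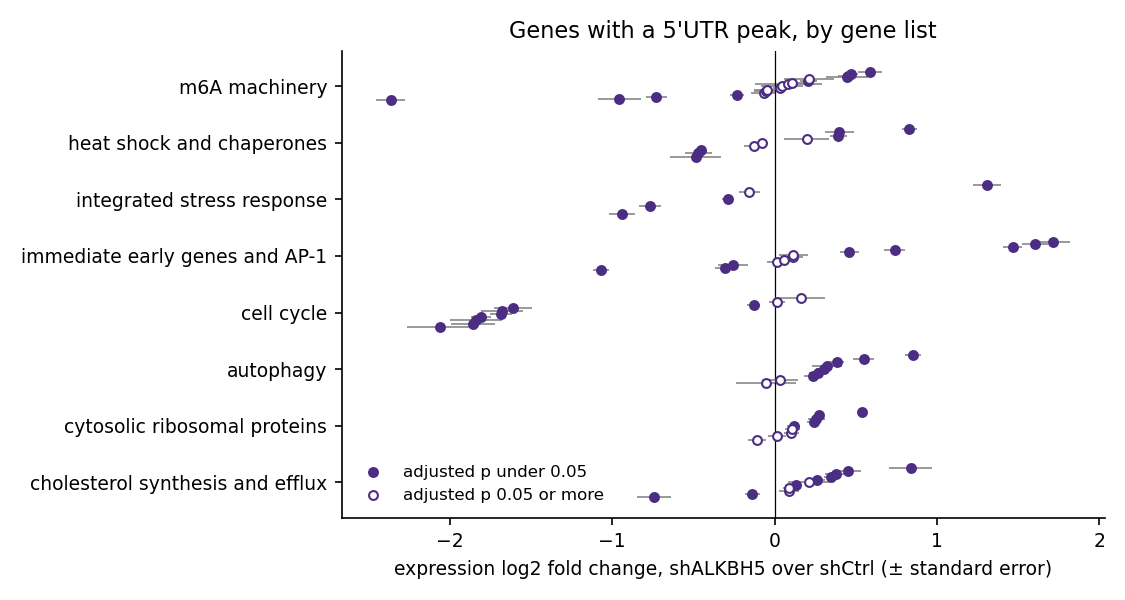
Expression log2 fold change, shALKBH5 over shCtrl, of the tested genes with a 5'UTR peak in each gene list; points are genes, bars are standard errors, and filled points have an adjusted p under 0.05 by limma. Of the cell cycle genes 8 lie below 0 with filled points, and of the autophagy genes 7 lie above 0 with filled points.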

How the data were processed

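RNA-Seq of input and MeRIP-Seq were analysed in A375 cells with shALKBH5 and shCtrl, with 3 input and 3 IP libraries per group, grouped by their labels. The authors deposited expression as FPKM per input library, with no counts, so the depth is unknown. Low FPKM values showed no steps of whole reads. The authors' peak lists, 1 per group, give for each peak a fold enrichment (a ratio of IP over input), and a log10 p and log10 FDR, treated as a score because some are infinite. The authors also deposited log2 fold changes, p-values and FDRs of their own comparisons, which were not used. The deposited peak length and the positions (other values) count introns. Aligner, peak caller and pooling are not given in the sources used here. The labels name a mouse build, which cannot hold for these human coordinates. Of 21754 genes matched to RefSeq GRCh38.p14 by symbol, 75.2% had both ends within 1000 bp.

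The 12985 genes averaging 0.5 FPKM or more were tested, two-sided, on log2(FPKM + 0.1) by limma 3.58.1 (lmFit, then eBayes with a trend; R 4.3.3), and p-values were adjusted by Benjamini-Hochberg over all of them. The scale understates changes of low genes, and 3 libraries per group limit the precision. No p was adjusted over a list alone. Peaks have no test, only 95% Wilson intervals. An overlap meant 1 bp or more on 1 strand, and starts, which count from 0 in the lists, were changed to count from 1. Distances run from the 5' end of the gene to the 5' end of the peak and are negative upstream. Start sequences were matched by symbol, chromosome and strand, for 14074 genes, 5718 of them with a 5'UTR peak and 2315 of these within 10 bp. The remaining computing was done in Python 3.11.15 (scipy 1.17.1, pandas 2.3.3, numpy 2.4.6, matplotlib 3.10.9).

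The members, the gene lists and the rules were chosen with earlier results of these data known. Named were ALKBH5, per list up to 4 genes with a 5'UTR peak and the highest mean FPKM, the 10 highest folds shared by both lists at 5 FPKM or more with an FDR of at most 0.01, the 5 largest rises and 5 largest falls in expression (adjusted p under 0.05, no overlap, 1 FPKM or more in the group with more, a 5'UTR peak in both lists), and the 5 largest rises and falls in fold. Alternatives were pseudocounts of 1 and 0.01, no filter or one at 1 FPKM, median ratio scaling, a replicate block, no trend, each library left out, and stricter peaks and overlaps. Division by the step and the other settings for start bases were chosen after seeing the data. Sequences of whole peaks and single IP libraries were not analysed here, and 1 gene among the largest falls is not reported here.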

Additional observations from a re-analysis of the deposited data

How the results depend on the processing

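Depth is unknown and each group has 1 peak list, so no peak value has an error between replicates. The count of genes with a 5'UTR peak called by limma, 3570, ran from 3078 to 3550 with each library left out (higher 1517 to 1938, lower 1536 to 1708), and with the replicate block it was 3219 (1643 higher, 1576 lower). The replicate numbers did not pair the samples, since deviations from the group means of same-numbered libraries correlated at 0.02, -0.05 and 0.06. Median ratio scaling gave 1510 higher and 1971 lower and moved the median log2 fold change of all genes by -0.07. Genes with peaks past a fold of 2 and an FDR of 0.01 in both lists, a smaller set, gave 1834 called, 934 higher and 900 lower. For sharing, the lists gave 82.7% and 81.5% with such peaks in both lists, 53.9% and 54.9% with a reciprocal overlap of 50%, and 73.8% and 74.6% with 5'UTR partners only. Such peaks began at the gene end in 48.5% and 49.0%. From the middle of the peak the median distance was 1574 and 1536 bp, since the span then counts. With genes as the unit, the 5'UTR shares were 32.3% and 33.2%. The median log2 ratio of fold lay between -0.06 and 0.0013 under 5 alternatives, the last from division by the steps, which was chosen after seeing the data. The share of starts with A lay between 48.8% and 52.3% under 4 settings chosen likewise. All 9 genes named for expression kept their direction and an adjusted p under 0.05 in the alternatives that gave a value, 13 for each gene and 11 for MAN1A1. Overlap of exon blocks was not run, because the lists give spans.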
